A study of Rattus norvegicus with 20 samples.

Results

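The brain of rats with stress cardiomyopathy (SCM) was compared with the brain of control rats by RNA sequencing. The comparison used 10 of the 20 libraries of the series, which were those labelled brain, from 5 SCM rats (called Model in the labels) and 5 control rats. All were male Sprague-Dawley rats of 250 to 300 g, an outbred stock, so the animals of a group differ genetically. SCM rats were immobilized for 6 hours, repeated over 7 days, and the controls were normal rats. Rats of both groups were anesthetized when they were randomized, and no drug or genetic change is named for either group. The brain region, the hour of sampling and the time since the last immobilization are not given in the sources used here, and the SCM label rests on the immobilization, since no cardiac measurement is attached to a library.

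Immobilization is a strong physical and psychological stressor in rodents. It engages the sympathetic nerves and the hypothalamus, pituitary and adrenal cortex, and the glucocorticoid hormones that follow reach the brain, where their receptors bind DNA and raise or lower the transcription of target genes. Neurons also switch on a set of transient transcription factor genes after stimulation. A brain library mixes RNA from neurons, astrocytes, oligodendrocytes, microglia and vessels, so in these data fewer cells of a type and less RNA per cell cannot be told apart. The study sequenced both brain and left ventricle on the idea that heart and brain interact in this disease.

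The count table identifies genes by Ensembl or XLOC identifiers, and 0 of the 24160 identifiers could be matched to a symbol with the reference table used here. What each gene encodes is therefore not stated, the tissue was not checked against marker genes, and only 4 genes are printed by identifier. The labels were checked in another way, which cannot show by itself which set of libraries is brain. The main axis of variation over all 20 libraries, 85.5% of the variance, parted brain from left ventricle, and correlations of log2 CPM (counts divided by the size of the library) were at least 0.973 within a tissue and at most 0.814 between tissues. For the rat names, each of the 10 brain libraries correlated best with the left ventricle library of the same name, over the 500 genes that varied most in both tissues. The lowest correlation between libraries of the same name was 0.181, and the highest between different names was 0.199. Total counts ran from 25892951 to 30912557 in control brains and from 22386526 to 35988591 in SCM brains (exact two-sided permutation test, p = 0.984). Between 18724 and 19253 features had a count in a brain library, and 16002 features passed the filter on low counts. The labels give no batch or date.

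Some brain libraries did not lie with their group. On the first principal component of log2 CPM, 23.6% of the variance, SCM rat 3 (-27.57) lay with control rats 1 (-38.05) and 5 (-33.48), while the other SCM rats were at 8.19 to 36.2 and the other controls at 0.843 to 4.65. The deviations of SCM rat 3 from the mean of each gene correlated across genes at 0.221 with control rat 1 and 0.120 with control rat 5, and at -0.127 to -0.276 with the other SCM brains. Its total of 26515855 counts and its 18974 features with a count lay within the range of the other brains. SCM rat 2 was the lowest on the second component (-43.47) and had 11.1% of its counts in its 10 most abundant genes, against 7.76% to 9.13% elsewhere. The number of genes called is given with and without each rat.

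In the brain, 28 of the 16002 genes tested (0.175%) changed with stress at an adjusted p-value under 0.05, at any size of change. Of these, 16 were higher in SCM (0.1% of genes tested) and 12 were lower (0.075%). Other fits gave other counts. DESeq2, with its own filter that left 16223 features, called 371 genes (174 higher, 197 lower), and limma-voom called 29 (16 higher, 13 lower). Adding sample quality weights to limma-voom gave 76 genes, and adding the replicate block to edgeR, in which same-numbered rats are paired, gave 15. The higher genes had log2 fold changes from 0.38 to 1.61 with a median of 0.79, and the lower genes from -1.11 to -0.37 with a median of -0.70. Only 6 of the 28 changed by more than 1 on the log2 scale (0.0375% of genes tested), 5 of them upward, and 6 changed by less than 0.5. None passed the limits stated by the study, an absolute log2 fold change over 2 besides the adjusted p-value (0 genes, 0%, by edgeR). With the same fold limit 23 genes had an unadjusted p-value under 0.05, DESeq2 called 14 genes and limma-voom called 0. In all 28 genes the 5 SCM values lay on one side of the 5 control values, against 3.86% of all genes tested, 2.08% with SCM higher and 1.77% with SCM lower. The test and this count rest on the same values.

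ENSRNOG00000043098 had the largest rise among the 28 genes and the lowest adjusted p-value. Its normalized CPM, scaled so that the typical gene is equal between libraries, was 11.001, 13.0, 9.24, 9.52 and 9.72 in control rats 1 to 5. In SCM rats 1 to 5 it was 30.5, 39.7, 32.1, 31.1 and 26.3. The lowest SCM brain lay 1.02 above the highest control on the log2 scale, the widest gap among the 28 genes. The group levels were 10.5 ± 1.55 in controls and 32.0 ± 4.88 in SCM (SD, n = 5 each), a log2 fold change of 1.61 ± 0.13 (SE, adjusted p = 0.000286). The 95% confidence interval of the log2 fold change ran from 1.33 to 1.88, and this was the only one of the 28 genes with an interval wholly beyond 1. It lost the call only when brain and left ventricle were fitted together with 1 estimate of the spread, at an adjusted p = 0.284 and an unaltered log2 fold change of 1.61.

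ENSRNOG00000007081 rose by a smaller amount from a very even baseline. The controls measured 10.7, 11.04, 10.8, 11.7 and 11.2 normalized CPM, and the SCM brains 19.1, 21.3, 23.0, 23.3 and 18.8. The controls were close to each other, and the gap to the lowest SCM brain was wider than the range of either group. The means were 11.1 ± 0.393 and 21.1 ± 2.08 CPM (SD, n = 5 each), which is a log2 fold change of 0.93 ± 0.09 (SE, adjusted p = 0.0018). The interval of 0.73 to 1.12 includes a doubling.

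The third and the fourth gene by adjusted p-value also rose. The third was at 27.1, 31.9, 29.0, 33.5 and 35.5 CPM in controls and at 65.2, 66.4, 50.3, 66.6 and 73.7 CPM in SCM brains, with a log2 fold change of 1.04 ± 0.11 (SE, adjusted p = 0.00183). The fourth was at 33.6, 51.7, 34.8, 48.5 and 50.2 CPM in controls and at 113, 109, 81.2, 98.3 and 110.0 CPM in SCM brains, with a log2 fold change of 1.22 ± 0.14 (SE, adjusted p = 0.00356). In both genes SCM rat 3 was the SCM brain closest to the controls. These 2 genes and the 2 above were the only ones of the 28 that kept an adjusted p-value under 0.05 in each of 10 fits that left out 1 brain library.

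**Figure D1:**
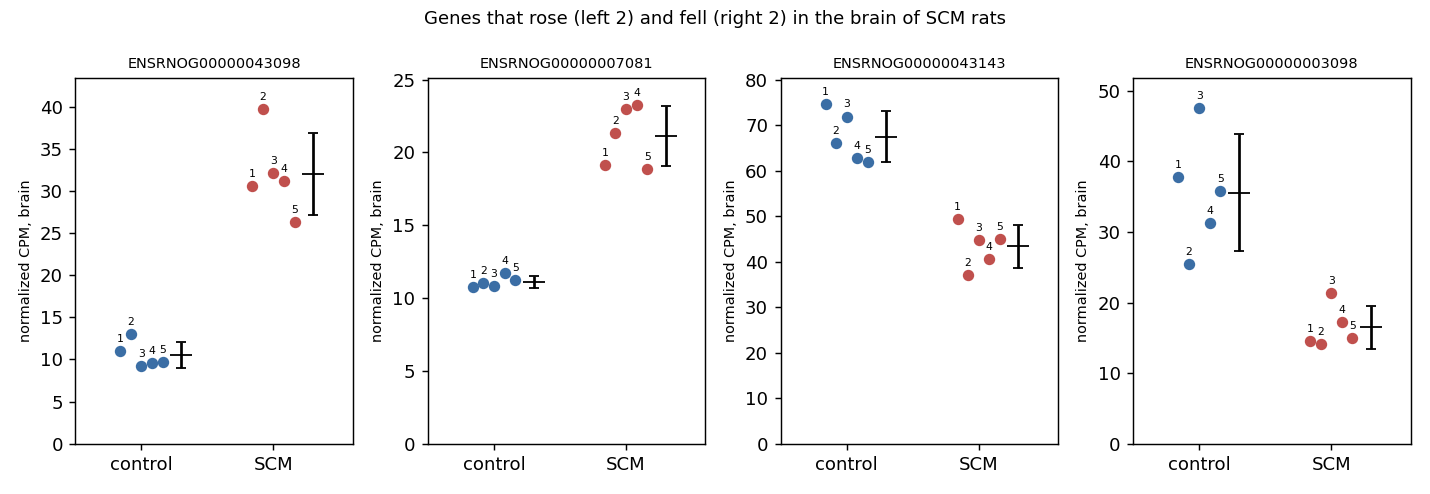
Normalized CPM (vertical axis, from 0) of the 4 genes printed by identifier in each control (blue) and SCM (red) brain library, with the rat number beside each point and the mean ± SD at the right of each group (n = 5). In ENSRNOG00000043098 the SCM brains sit between 26.3 and 39.7 and the controls between 9.24 and 13.0, and in none of the 4 genes do the groups overlap.

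ENSRNOG00000043143 had the lowest adjusted p-value among the genes that fell. Controls were at 74.6, 66.2, 71.9, 62.8 and 61.9 normalized CPM and SCM brains at 49.4, 37.1, 44.8, 40.5 and 44.99. The means were 67.5 ± 5.59 and 43.3 ± 4.69 CPM (SD, n = 5 each). This was a log2 fold change of -0.64 ± 0.09 (SE, adjusted p = 0.0191), with an interval of -0.83 to -0.45. The fall was moderate, and the call was kept in 5 of the 10 fits without 1 library, with adjusted p-values up to 0.081 in the others.

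ENSRNOG00000003098 had the largest fall among the 28 genes. Controls were at 37.9, 25.4, 47.6, 31.2 and 35.9 normalized CPM and SCM brains at 14.5, 14.1, 21.4, 17.3 and 15.01. The control brains varied widely, and the distance between control rat 2 and SCM rat 3 was small against that spread. The means were 35.6 ± 8.24 and 16.5 ± 3.02 CPM (SD, n = 5 each), which is a log2 fold change of -1.11 ± 0.16 (SE, adjusted p = 0.0295). The interval ran from -1.46 to -0.76. The call was kept in 4 of the 10 fits without 1 library, and the adjusted p-value reached 0.108 without SCM rat 5.

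The 16 higher genes had control means from 5.04 to 124 CPM and the 12 lower genes from 15.96 to 109 CPM. For 15 of the 28 the 95% confidence interval lay wholly beyond 0.5 on the log2 scale, in either direction, and no interval reached further from 0 than 1.88. The distance between the nearest SCM and control brains was as small as 0.07 on the log2 scale among the higher genes and 0.08 among the lower genes. The distance was at most 1.02 among the higher genes and 0.38 among the lower genes. Taking the mean over the 16 higher genes, each SCM brain lay 0.66 to 0.86 above the control mean in log2(CPM + 0.5), and over the 12 lower genes 0.49 to 0.80 below it. Control brains lay from -0.11 to 0.10 on both means. These means describe genes chosen for this difference.

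**Figure D2:**
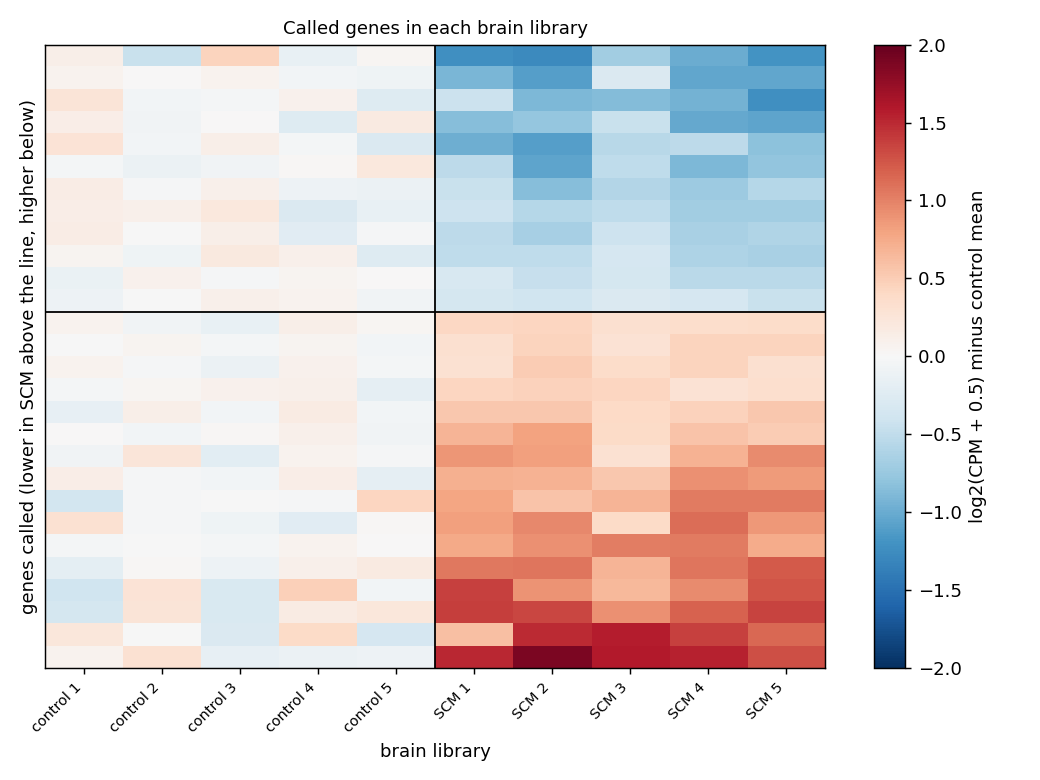
Each row is 1 of the 28 genes, each column a brain library, and the colour is log2(CPM + 0.5) minus the mean of the 5 controls, from -2 (blue) to 2 (red). The 12 lower genes are above the horizontal line and the 16 higher genes below it, and the column of SCM rat 3 is paler than the other SCM columns in many rows.

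SCM rat 3 was closest to the controls in 17 of the 28 genes, 10 higher and 7 lower ones. The other SCM rats were closest in 6, 1, 2 and 2 genes (rats 1, 2, 4 and 5). Among controls, rat 4 was closest to the SCM brains in 12 genes and rats 1, 2, 3 and 5 in 4, 5, 0 and 7.

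The number of genes called depended on which rats were included. Without SCM rat 3 it rose to 112, 52 higher and 60 lower, and these 112 included all of the 28 genes. Without control rats 1, 2, 3, 4 or 5 in turn it was 6, 6, 4, 17 and 17. Without SCM rats 1, 2, 4 or 5 it was 9, 7, 5 and 5. Lower genes were lost most: 0 were called without control rat 1, control rat 3, SCM rat 4 or SCM rat 5. With control rats 1 and 5 and SCM rat 3 all left out, a choice made after seeing the data, 22 genes were called, 14 higher and 8 lower, and 14 of them were among the 28. All 28 genes kept their direction and an unadjusted p-value under 0.05 in every one of these fits. They were chosen on these same libraries and their groups did not overlap, so this outcome was close to fixed in advance.

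**Figure D3:**
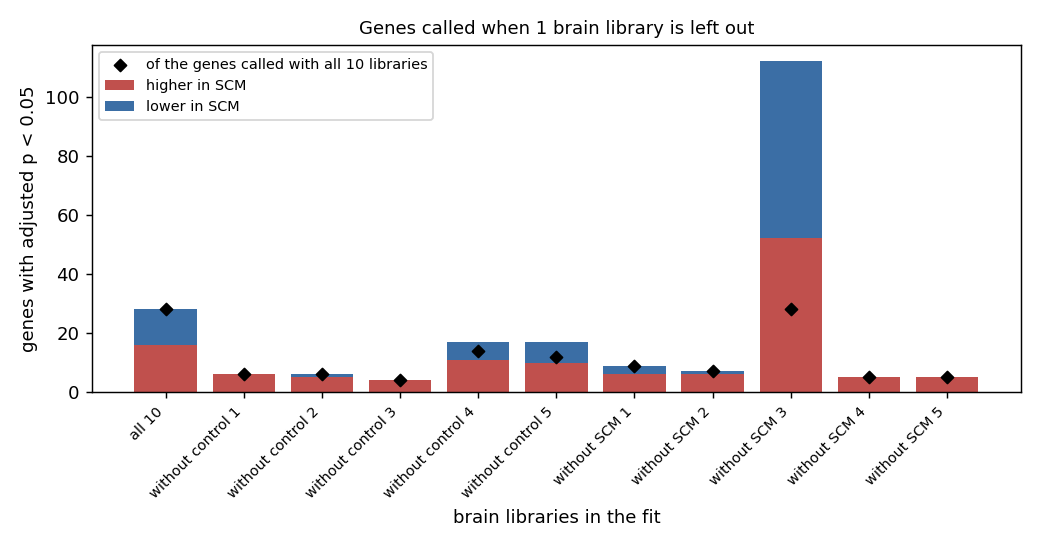
The number of brain genes with an adjusted p-value under 0.05 (vertical axis), higher in red and lower in blue, with all 10 libraries and without each in turn, and diamonds for how many of them belong to the 28 genes. The bar without SCM rat 3 reaches 112 genes, and the other bars without 1 library lie between 4 and 17.

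The genes called were moderately to well counted. Their mean count per brain library ran from 250 to 4064 with a median of 1393, against a median of 613 over all genes tested, and no brain library had under 109 counts for any of them. When the 16002 genes were divided into 5 equal bands by mean count, the bands held 0, 2, 7, 11 and 8 of the 28 genes from the lowest to the highest. The lowest band, with 8 to 92.4 counts, therefore held none (0.0% of 3201 genes), while the fourth, with 927 to 2100 counts, held most (0.344%). The median standard error of the log2 fold change was 0.39, 0.18, 0.11, 0.09 and 0.08 in the same order. The smallest changes called were 0.90, 0.50, 0.38 and 0.37 in the 4 upper bands, so smaller changes were called where counts were high.

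The intervals show how closely 5 rats a group fixed the size of change in the other genes. The absolute log2 fold change was under 0.5 in 91.3% of genes tested, with a median of 0.14. For 83.2% of genes the 95% confidence interval, not adjusted for the number of genes, lay wholly between -1 and 1, so a doubling or halving lay outside it. That share was 32.1% in the lowest band and 88.6%, 97.8%, 98.5% and 99.3% in the others. An interval wholly between -0.5 and 0.5 was reached by 57.2% of genes. In the lowest band edgeR called no gene, so it did not call the 19 genes there that lay beyond 2 on the log2 scale, in either direction. DESeq2 called 14 genes past the same fold limit, and the bands of these 14 were not examined.

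Most genes with a low unadjusted p-value in edgeR did not pass its adjustment, and edgeR calls no change for them. Of the 371 genes that DESeq2 called, 367 had an unadjusted edgeR p-value under 0.05. An unadjusted p-value under 0.05 was reached by 2294 genes (14.3%), 1104 higher and 1190 lower, with median absolute log2 fold changes of 0.27 and 0.36. That share lies above the limit of 0.05 itself, so the genes called need not be all that differed. Groups did not overlap for 589 genes that were not called. A further 63 genes had an adjusted p-value between 0.05 and 0.1, of which 30 were higher and 33 lower, and the median size of their log2 fold changes was 0.56. The last gene called had an adjusted p = 0.0479 and an absolute log2 fold change of 0.38, and the first not called had 0.0525 and 0.55.

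The largest fold changes were in other genes. An absolute log2 fold change over 2 was seen in 27 genes, 14 higher and 13 lower. Of these, 19 were in the lowest band, 6 in the second and 2 in the fourth. In 13 of these 27 genes 1 library held most of the counts of all 10, and 8 different libraries held that place, each in 1 to 3 genes. Among the 28 genes called, by contrast, no library held more than 22.1% of the counts of a gene. Of the 27 genes with the large fold changes, 23 had an unadjusted p-value under 0.05 (0.144% of genes tested). These 23 had a median of 53.3 counts per library and a lowest adjusted p-value of 0.089. Groups did not overlap in 5 of these 23 genes, and 3 of the 23 were XLOC loci. None of the 242 XLOC loci tested in the brain was among the 28 genes.

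**Figure D4:**
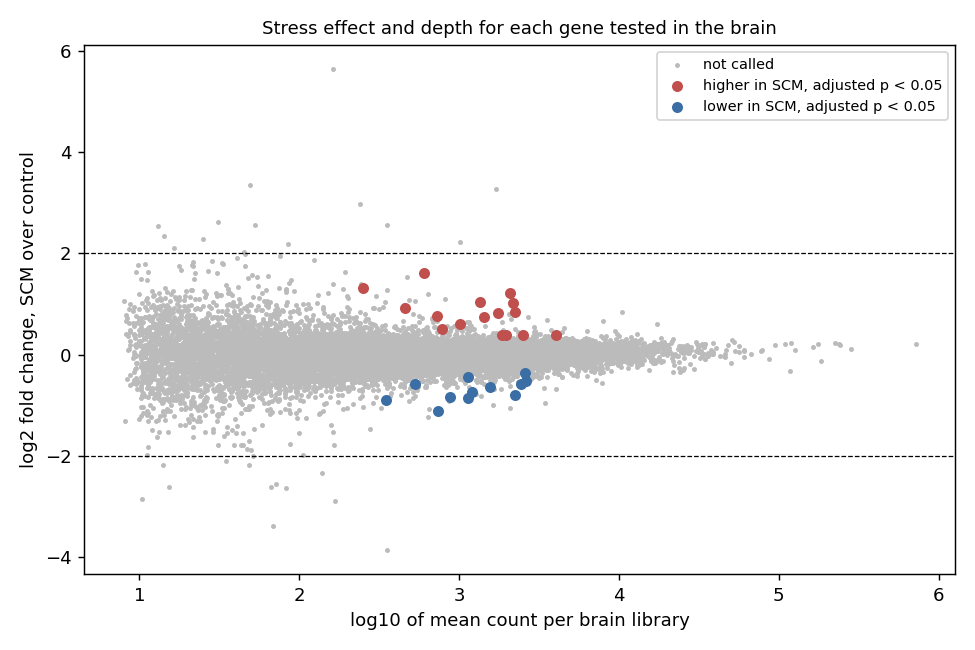
Log2 fold change of SCM over control (vertical axis) against log10 of the mean count per brain library (horizontal axis) for the 16002 genes tested, with the 16 higher genes called in red and the 12 lower ones in blue; dashed lines mark a log2 fold change of 2 in either direction. The called genes lie between 250 and 4064 counts, and the points beyond the dashed lines are mostly at lower counts.

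The left ventricle of the same rats shows whether the 28 genes moved in the heart too. Of them, 26 were counted well enough for a test there. Of the 15 higher genes tested, 14 were also above the control level in the SCM ventricle, with a median log2 fold change of 0.53. Of the 11 lower genes tested, 6 were below it, with a median of -0.01. Over the 13379 genes tested in both tissues the direction was shared by 58.0% of genes higher in the brain and by 61.5% of genes lower in it. In the ventricle 4 of the higher genes rose and 1 fell at an adjusted p-value under 0.05, and 1 of the lower genes fell and 1 rose, against 5.21% of all genes tested there. At an unadjusted p-value under 0.05, which 23.2% of all ventricle genes reached, 9 higher genes were up and 1 was down, and 3 lower genes were down and 3 were up. The shares of 5.21% and 23.2% count both directions together. All the shares over genes tested cover genes that were not chosen for a change in the brain. Brain and ventricle come from the same 10 rats, so the tissues are not independent.

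The printed genes differed in the ventricle. ENSRNOG00000043098 was at 4.79, 5.31, 8.79, 7.23 and 0.208 normalized CPM in control ventricles and at 50.7, 8.25, 39.7, 8.33 and 22.7 in SCM ventricles. Its ventricle groups overlapped, and its log2 fold change there was 2.30 ± 0.67 (SE, adjusted p = 0.0746). ENSRNOG00000007081 was at 178 ± 28.2 CPM in control and 270.1 ± 27.1 CPM in SCM ventricles (SD, n = 5 each), well above its brain level, and it rose by a log2 fold change of 0.60 ± 0.11 (SE, adjusted p = 0.0144). ENSRNOG00000043143 was at 37.9 ± 3.26 and 32.5 ± 1.96 CPM (SD, n = 5 each), which is a log2 fold change of -0.22 ± 0.08 (SE, adjusted p = 0.127). The third gene by adjusted p-value had too few counts in the ventricle to be tested. The fourth rose there by a log2 fold change of 1.12 ± 0.28 (SE, adjusted p = 0.0429).

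Whether stress acted differently on the tissues was tested by an interaction term, blocked by rat. A difference was called for 126 of 16720 genes (0.754%) and for 4 of the 28 genes, which were chosen on brain values that also enter this test. In all 4 the estimated log2 fold changes had opposite signs in the 2 tissues, and in 2 of them the ventricle value also passed the test there. ENSRNOG00000003098 was one of them: it fell in the brain, and in the ventricle it was at 36.2 ± 8.70 CPM in controls and 46.8 ± 2.03 CPM in SCM (SD, n = 5 each). Its ventricle groups overlapped, and its log2 fold change there of 0.37 ± 0.14 (SE, adjusted p = 0.137) did not pass. The difference of its log2 fold changes, brain minus ventricle, was -1.47 ± 0.24 (SE, adjusted p = 0.0209). The others were the twelfth, sixteenth and twenty-sixth of the 28 genes by adjusted p-value, with differences of 1.40, -1.08 and -1.05 and ventricle adjusted p-values of 0.0113, 0.09 and 0.0253. The count of 126 over the whole table became 285 without the rat block. It was 22, 37, 10, 93 and 217 without control rats 1 to 5 and 33, 33, 151, 83 and 29 without SCM rats 1 to 5. Among the 28 genes the number was 1 to 5 when each rat was left out, with 1 without control rat 1 or SCM rat 1 and 2 without control rat 3, SCM rat 2 or SCM rat 5. For ENSRNOG00000043098, ENSRNOG00000007081 and ENSRNOG00000043143 the interaction had adjusted p-values of 0.789, 0.303 and 0.199.

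**Figure D5:**
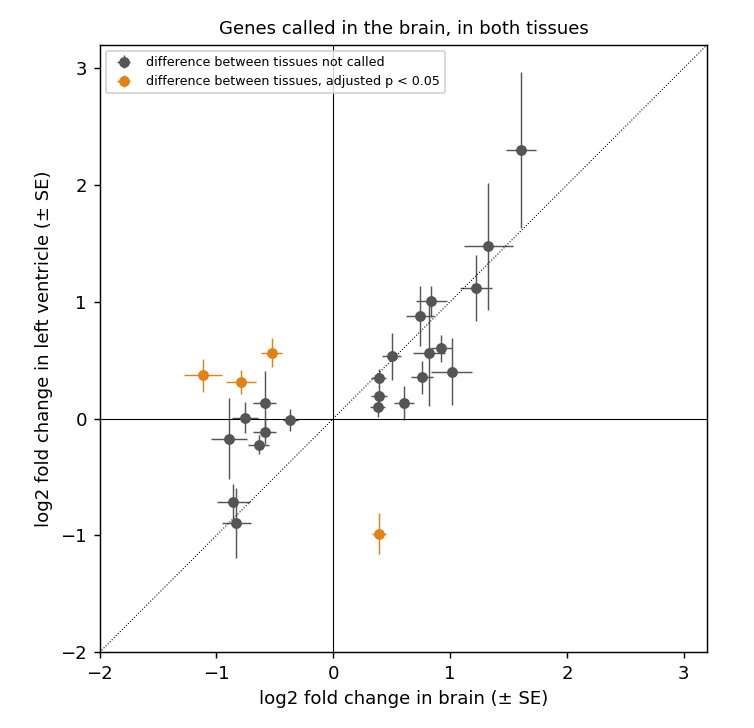
Log2 fold change in the left ventricle (vertical axis) against that in the brain (horizontal axis), each with its standard error, for the 26 of the 28 genes tested in both tissues, with a dotted line where the fold changes are equal. The 4 orange points, with a called difference between tissues, lie on opposite sides of 0 in the 2 tissues, and the highest point is ENSRNOG00000043098 at 1.61 and 2.30.

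The 28 genes were compared between the control tissues. Within each gene, the control brain level was more than 2 times the control ventricle level in 8 of the 28 (28.6%), against 30.0% of all genes tested, and the reverse held in 6 of the 28, against 19.8% of all genes tested. Both counts are near the share over all genes. The median of the brain level minus the ventricle level in log2(CPM + 0.5) was -0.41 for the 16 higher genes, 0.37 for the 12 lower genes and 0.22 for all genes tested. The scaling between organs assumes that their typical gene is equal.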

How the data were processed

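RNA was sequenced from the brain and left ventricle of 5 control and 5 SCM rats, and only the brain libraries entered the main fit. The table that the authors deposited holds raw counts, a column per library and a row per gene, without normalization. The labels name HISAT2, StringTie, SAMtools, the build mRatBN7.2 and a NEBNext Ultra kit. Their versions, the counting program and strandedness are not given in the sources used here, so how reads were split between overlapping genes or close copies is unknown. Counts were filtered with filterByExpr (minimum count 10, minimum total 15), scaled by TMM and tested with the quasi-likelihood test of edgeR 4.0.16 in R 4.3.3, with Benjamini-Hochberg adjustment. Standard errors and intervals came from the fitted model. Log2 CPM for components used a prior count of 2, and 0.5 was added for level comparisons. A floor of 3 counts, the limit that a count of 0 allows, equals 0.137 CPM in the smallest brain library and covers counting error only. Alternatives used DESeq2 1.42.0 and limma 3.58.1. Replicate numbers and rats came from the labels. Groups of 5 are separate rats by name, and the 20 pairs of brain libraries within a group differed by at least 6.38 times the sampling noise.

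The comparison and its lists were chosen with earlier results of these data known. Genes named were those called with no overlap between groups, by adjusted p-value, and at most 2 that rose and 2 that fell, since identifiers had no symbols. For the same reason the lists of stress pathways, cell types and brain regions, and promoter sequences, were not analysed here.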

Additional observations from a re-analysis of the deposited data

Results flagged for a closer look

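A library far from the other 4 of its group was found in 2 of 30 groups of values tested, where 1.5 would be expected by chance. Control brain 5 had 19237 features with a count, against 18972 to 19025 in the other control brains. ENSRNOG00000003098 was at 43.3 CPM in the ventricle of SCM rat 1, against 47.2 to 48.4 CPM in the other SCM ventricles.

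The effect of stress differed between brain and left ventricle for 4 of the 28 genes by the interaction test. ENSRNOG00000003098 had a difference, brain minus ventricle, of -1.47 on the log2 scale. The twelfth of the 28 genes by adjusted p-value had a difference of 1.40, with log2 fold changes of 0.39 in the brain and -0.98 in the ventricle (adjusted p = 0.00312, edgeR). The sixteenth had -1.08, from -0.79 and 0.31 (adjusted p = 0.0186, edgeR). The twenty-sixth had -1.05, from -0.53 and 0.56 (adjusted p = 0.0186, edgeR). These genes were selected on the brain values, and no explanation was tested.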

How the results depend on the processing

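All 28 genes kept their direction in every fit run, but they were chosen on these same libraries with no overlap between groups. The count of 28 was 26 to 29 with RLE or upper-quartile scaling, limma-voom, robust dispersion, other filters and 1 fit of all 20 libraries, but that last fit shared only 15 of the 28 genes and had 18 higher and 10 lower. It was 371 with DESeq2 (174 higher, 197 lower) and 76 with limma-voom and sample quality weights, both including all 28. It was 2294 with an unadjusted p-value and 6 with an absolute log2 fold change over 1. Leaving out 1 rat gave 4 to 112. Past the limits of the study the count of 0 became 14 with DESeq2, 3 with quality weights, 3 in 1 fit of all libraries, 23 with an unadjusted p-value, and 0 to 3 when 1 rat was left out, the 3 without SCM rat 3. The quality weights were lowest for SCM rat 2 (0.262) and SCM rat 3 (0.639). With the replicate block 15 genes were called, 12 of them among the 28. Same-numbered rats are different animals, and their deviations correlated from -0.184 to 0.131, with a mean of -0.044. Whether same-numbered rats shared a step of processing is not given in the labels and was not tested. The 4 genes with a called difference between tissues became 1 to 5 when 1 rat was left out, 5 without the rat block, and 4 with RLE scaling or the replicate number as the block. The cause of these changes was not tested.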
